A study of Mus musculus with 34 samples.

Results

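Mouse CAD cells labelled mir-138 DKO that had received a miR-138 mimic were compared, in serum, with cells of that label whose sample names give no transfection. The members were taken from the sample titles, which give 2 libraries of each kind, so that 4 of the 34 libraries of the series were compared and 12655 of 37310 gene identifiers had enough reads to be tested. CAD cells are a mouse catecholaminergic line, labelled neuroblastoma cells, and DKO is read as double knockout. The mimic was transfected at 3 nM with Lipofectamine RNAiMAX and the cells stayed in medium with 10% serum, with RNA taken 48 h later. The question was which changes appear with a reference other than pUC19, the plasmid DNA given to the usual control cells. For this reading 2 pUC19 libraries and 2 miR-137 mimic libraries in serum were used beside them, all of them labelled mir-138 DKO. The cells with no transfection named are called untransfected here. Their titles read DKO_2 and those of the transfected cells DKO, and what the 2 marks is not stated, so that a different clone or culture and the transfection itself cannot be told apart. The series design describes the mimic transfections as done in triplicate and the protocol as in duplicate, while 2 libraries of each group are given. Whether the replicates of each group were separate cultures is not stated, and the p-values therefore measure the spread between libraries.

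MicroRNAs are short RNAs that guide Argonaute proteins to messenger RNAs, mostly through pairing of the seed, the bases near the 5′ end of the miRNA, with sites in 3′ untranslated regions. Bound messengers are silenced by lowered translation and faster decay through deadenylation, so that direct targets usually fall in RNA level when a mimic is supplied, and genes further downstream can move either way. miR-138 is abundant in brain and is known for restraining dendritic spine growth through the depalmitoylating enzyme Lypla1, and for acting on regulators of cell division and migration in tumour cells.

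The mature sequences show what distinguishes the mimics that were given, with the seed (bases 2 to 8) in capitals. They come from RefSeq (GRCm38.p6), and the chemical form of the mimics themselves is not described. miR-138-5p is encoded by the hairpin genes Mir138-1 (chromosome 9) and Mir138-2 (chromosome 8), which give the same mature sequence, and miR-137-3p by Mir137 (chromosome 3).
mmu-miR-138-5p: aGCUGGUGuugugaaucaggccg
mmu-miR-137-3p: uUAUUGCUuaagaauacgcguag
The miR-138 seed is complementary to CACCAGC and the miR-137 seed to AGCAAUA in RNA letters. Messenger sequences were not at hand, so seed matches among the changed genes were not counted.

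The targeted loci were read first. Mir138-1 had 28 and 29 counts in the untransfected libraries, 24 and 32 in the miR-138 mimic libraries and 18 and 15 in the pUC19 libraries, and Mir138-2 had 0 counts in all of these. In CPM (read counts scaled to library size) Mir138-1 stood at 1.48 and 1.48 in untransfected cells against 0.95 and 1.19 with the mimic, a log2 fold change of -0.46 ± 0.27 (SE, adjusted p = 0.142 in edgeR's quasi-likelihood test). These polyA reads over a hairpin gene measure neither the mimic nor mature miR-138, so the label DKO rests on the titles.

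Reads assigned to genes ranged from 20199654 to 25582125 in the 4 libraries compared and from 12885638 to 18805687 in the pUC19 libraries. Replicates of these groups correlated at 0.9943 to 0.9956 (Pearson, log CPM over genes, which are not independent replicates). The line's markers were uneven. Of 12 markers of catecholaminergic neurons 5 stayed under 1 CPM in all 8 serum libraries, with the noradrenaline and vesicular monoamine transporters Slc6a2 and Slc18a2 at 0 counts and Th, the rate-limiting enzyme of catecholamine synthesis, at 2 and 6 counts in the untransfected libraries and 2 and 0 in the mimic libraries. Summed over the list they gave 762 and 775 CPM in untransfected cells and 706 and 740 CPM with the mimic. Markers of other cell types were low: 10 of 12 glial, 7 of 10 fibroblast, all 10 blood and 9 of 10 epithelial and endothelial markers were under 1 CPM in all 8 libraries, with summed levels of 5.11 and 5.65, 11 and 10.9, 0.896 and 0.967, and 14.4 and 14.3 CPM in untransfected cells against 4.41 and 5.52, 12.9 and 10.7, 0.512 and 0.889, and 15.8 and 15.3 CPM with the mimic. Myh3, an embryonic myosin among the 10 muscle markers, made up nearly all of the summed muscle level of 201 and 192 CPM in untransfected cells and 184 and 183 CPM with the mimic (log2 fold change -0.10, adjusted p = 0.0971).

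Against untransfected cells 7605 genes (60.1% of those tested) differed at an adjusted p under 0.05, the rule for a call throughout, with 3731 higher (29.5%) and 3874 lower (30.6%) in mimic-treated cells. Changes of at least 2-fold were made by 580 genes that rose (4.58%) and 568 that fell (4.49%). The 2 groups did not overlap in 10133 genes (80.1%), though with only 2 libraries per group many genes would not overlap without any difference. The median log2 fold change over all genes was 0.018. Against pUC19 7089 genes (56.0%) were called, 3631 higher (28.7%) and 3458 lower (27.3%). Both comparisons use the same miR-138 mimic libraries, so their agreement is not independent evidence. Counted gene by gene, 2703 of the 3731 rises (72.4%) and 2773 of the 3874 falls (71.6%) were also called in the same direction against pUC19, which is 21.4% and 21.9% of all genes tested (5476 genes, or 43.3%, in all).

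**Figure D1:**
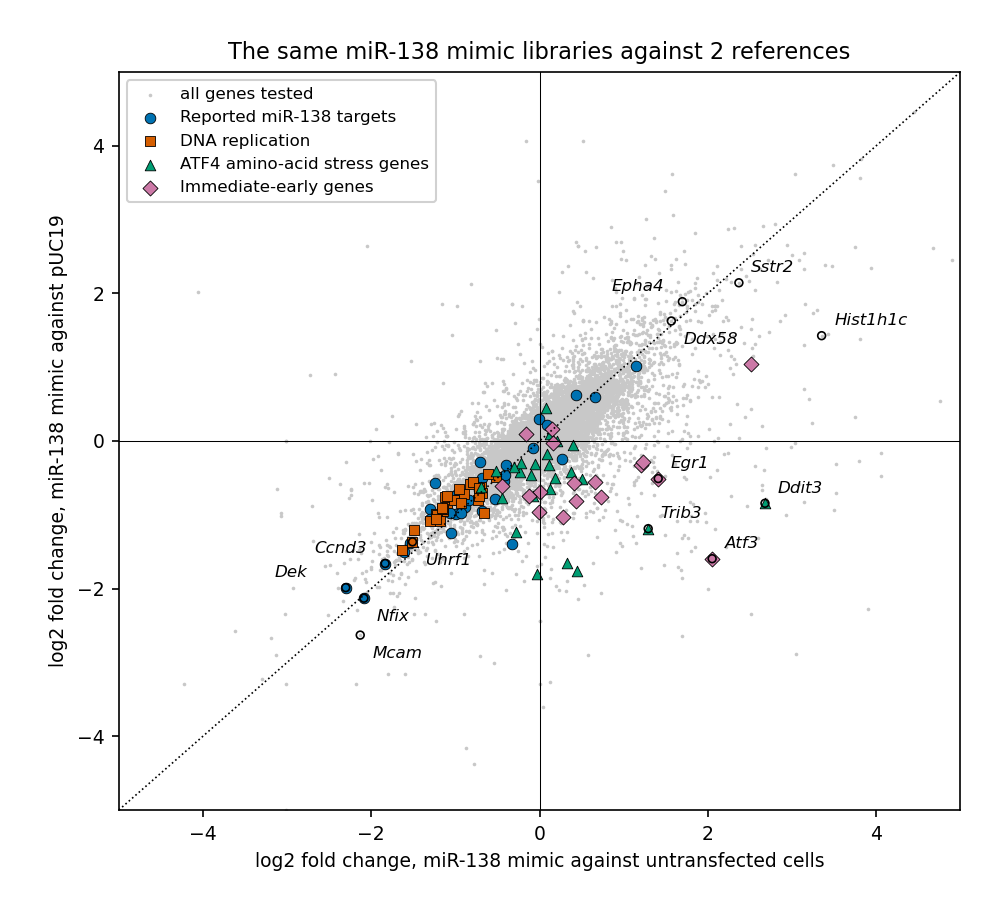
Each grey point is 1 of the genes tested, placed by its log2 fold change in miR-138 mimic cells against untransfected cells (horizontal axis) and against pUC19 cells (vertical axis), with 4 gene lists coloured and selected genes ringed and named. The dotted line marks equal changes, 10 genes lie outside the axes, and DNA replication genes and most reported miR-138 targets lie near the line in the lower left, while ATF4 and immediate-early genes lie below it.

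Large changes were then read against pUC19. Of the genes that fell at least 2-fold 463 of 568 (81.5%) were called lower against pUC19 and 0 were called higher. Among the rises of at least 2-fold the count was 376 of 580 (64.8%), with 37 (6.38%) called lower against pUC19. These calls against pUC19 were of any size, and 284 of the falls (50%) and 266 of the rises (45.9%) were at least 2-fold in both comparisons. Of the 463 falls 181, and of the 376 rises 50, were also called in that direction in pUC19 against untransfected cells. The 2 references themselves differed in 3321 genes (26.2%), with 1357 higher (10.7%) and 1964 lower (15.5%) in pUC19 cells, and which of them departs cannot be told apart. That count was 1730 without untransfected replicate 1 and 1750 without pUC19 replicate 2, and with only the compared libraries in the fit 54.1% of 2990 calls were higher, against 40.9% with all 14 libraries of the experiment. At 2-fold or more 215 genes were higher (1.70%) and 63 lower (0.498%) in pUC19 cells. Of the 3731 rises 2266 kept their call against pUC19 while pUC19 and untransfected cells were not called apart, and of the 3874 falls 1917 did.

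**Figure D2:**
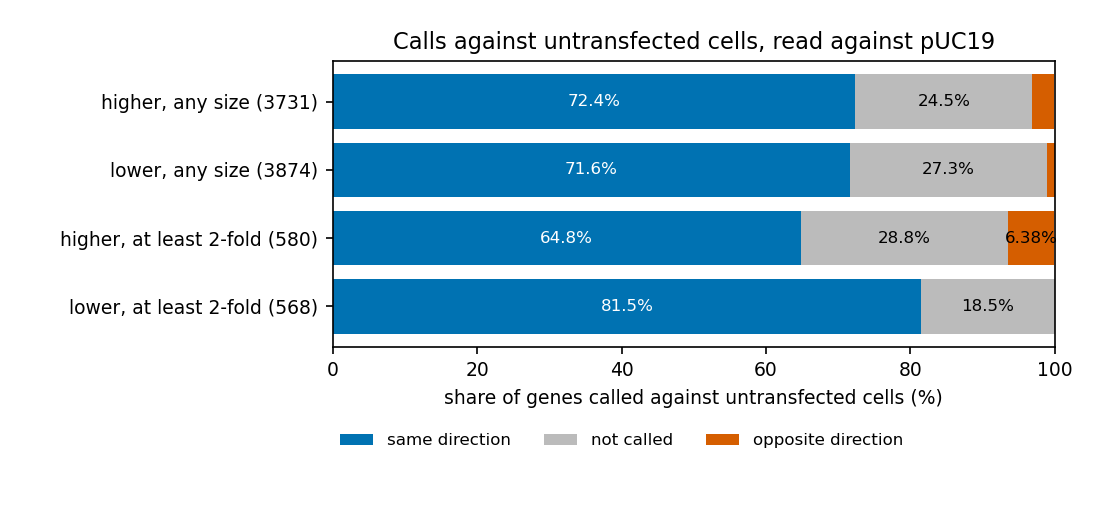
Bars show, for genes called higher or lower in miR-138 mimic cells against untransfected cells (number in brackets), the percentage called in the same direction (blue), not called (grey) or called in the opposite direction (orange) against pUC19. The top bars take changes of any size and the lower bars those of at least 2-fold against untransfected cells. In the lower bars 81.5% of falls and 64.8% of rises kept their direction against pUC19, at any size there.

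Genes listed as reported miR-138 targets mostly fell with either reference. The list, like the others, was chosen with earlier results of these data known, so its counts are not independent evidence. Of 38 listed genes 32 were tested, 25 fell against untransfected cells and 4 rose, beside 30.6% and 29.5% of all genes. The median log2 fold change was -0.78 against untransfected cells and -0.77 against pUC19, where 26 were lower and 5 higher. All 25 that fell against untransfected cells also fell against pUC19, and 24 of them fell against the miR-137 mimic too. Leaving out any library of the groups compared left 25 lower against untransfected cells and 24 to 26 lower against pUC19.

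Nfix, a nuclear factor I transcription factor that shapes neural stem cell quiescence and differentiation, stood at 233.8 and 249.6 CPM in untransfected cells, 57.9 and 55.9 CPM with the miR-138 mimic and 248 and 250.2 CPM with pUC19. The untransfected and pUC19 libraries overlapped and both mimic libraries lay far below them. The log2 fold change was -2.09 ± 0.06 (SE, adjusted p = 3.49e-15) against untransfected cells and -2.13 (adjusted p = 7.26e-15) against pUC19. Dek, a chromatin protein that supports proliferation, had 455.7 and 408.7 CPM in untransfected cells, 90.5 and 84.7 CPM with the mimic and 371 and 322 CPM with pUC19, so that it fell against both, with log2 fold changes of -2.30 and -1.99. Ccnd3, a D-type cyclin that drives entry into the cell cycle, had 169 and 180.3 CPM in untransfected cells, 47.6 and 50.2 CPM with the mimic and 149.8 and 160.1 CPM with pUC19. Senp1, a protease that removes SUMO from proteins, had 127 and 132 CPM untransfected and 42.2 and 42.9 CPM with the mimic, against 118 and 122 CPM with pUC19. For these 4 genes no mimic library came near a library of either reference.

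Lypla1, the depalmitoylating enzyme, had 185 and 169 CPM in untransfected cells, 71.6 and 72.2 CPM with the mimic and 145 and 126 CPM with pUC19. It was 1 of the genes whose fall was larger against untransfected cells (log2 fold change -1.30) than against pUC19 (-0.92), and pUC19 cells were themselves lower than untransfected cells (-0.38, adjusted p = 0.000569). Rhoc, a small GTPase tied to cell migration, went the other way: 90.7 and 98.9 CPM untransfected, 46.6 and 45.0 CPM with the mimic and 108 and 108 CPM with pUC19, or -1.05 and -1.24 on the log2 scale. Sirt1, an NAD-dependent deacetylase, had 65.7 and 57.0 CPM untransfected and 31.4 and 30.4 CPM with the mimic, and its log2 fold change was -0.99 with either reference. Ezh2, the methyltransferase of Polycomb repressive complex 2, fell from 241.7 and 229.6 CPM untransfected to 98.8 and 93.1 CPM, and Rock2, a kinase of the actin cytoskeleton, from 448 and 423 CPM to 205 and 211 CPM. Vim, the intermediate filament protein vimentin, with 2867 and 2808 CPM untransfected and 2008 and 1910 CPM with the mimic, changed less (-0.54), and so did Sox9, a transcription factor of progenitor cells (-0.42).

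The rest of the list did not fall against untransfected cells. Pdk1, a kinase that inhibits pyruvate dehydrogenase, rose from 7.43 and 6.92 CPM untransfected to 16.6 and 15.3 CPM (log2 fold change 1.15), and Tert, the catalytic subunit of telomerase (0.66), Blcap (0.43) and Rela, a subunit of NF-kB (0.27), also rose. Rela was called lower against pUC19 (-0.24), so its direction depended on the reference. Limk1, an actin-regulating kinase, Igf1r, a growth factor receptor, and Vcan, a matrix proteoglycan, were not called, at -0.08, -0.01 and 0.08 (adjusted p = 0.241 for Limk1 and 0.177 for Vcan). Kdm6b, a histone demethylase that is counted among the 25 falls, had 80.6 and 87.0 CPM untransfected, 64.9 and 68.9 CPM with the mimic and 169 and 185 CPM with pUC19, so that its fall was -0.33 against untransfected cells and -1.40 against pUC19.

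**Figure D3:**
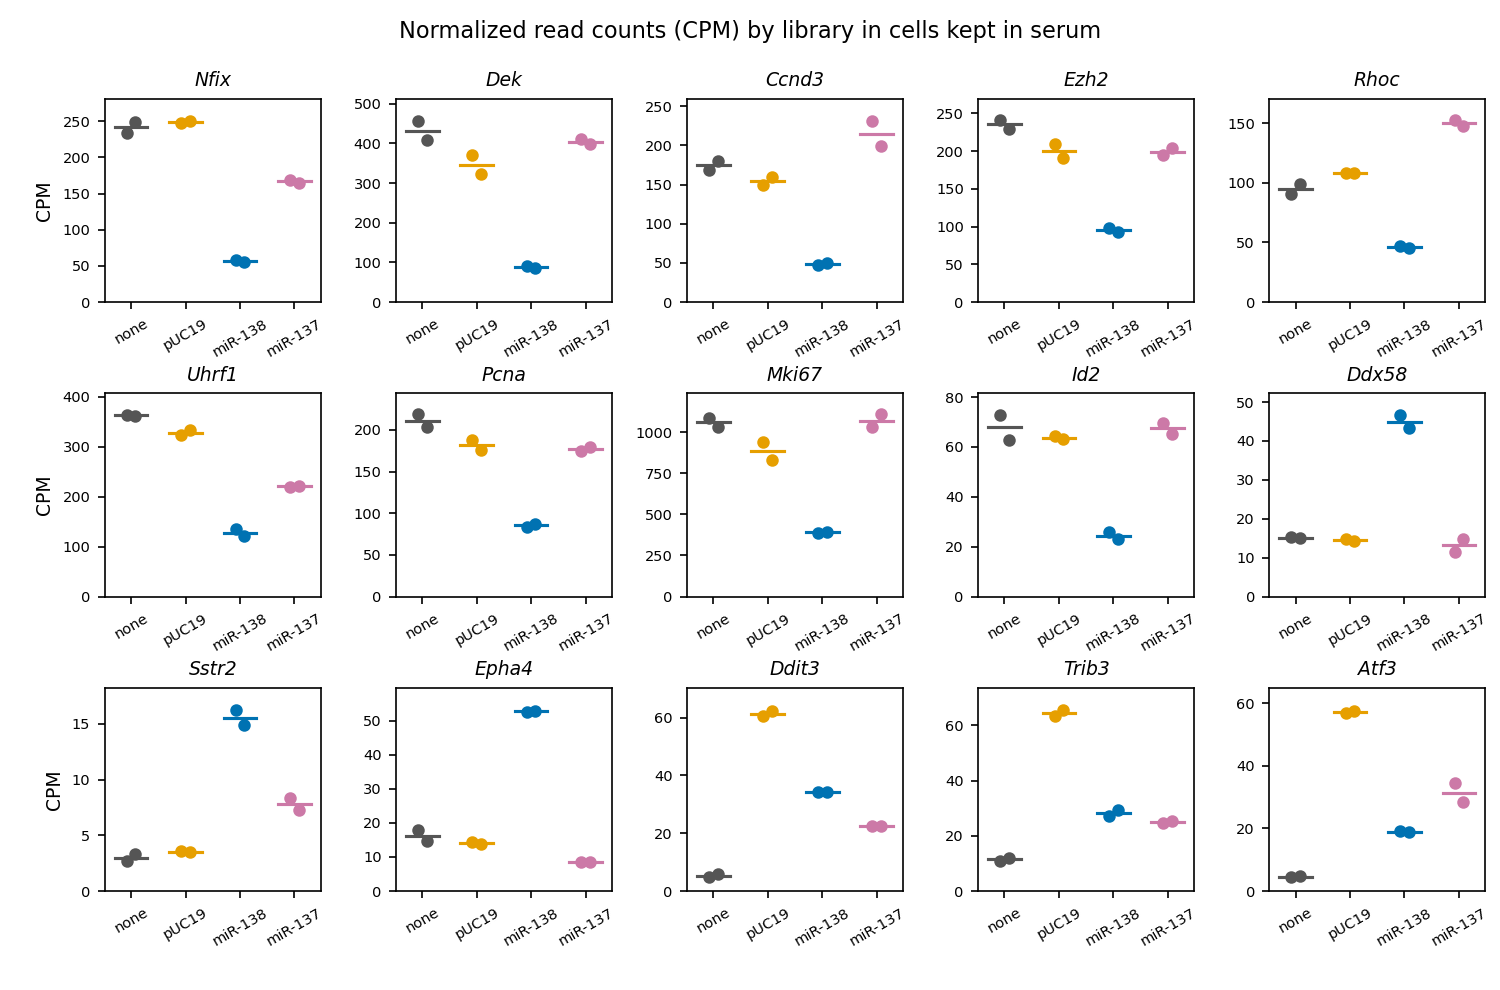
Each panel shows 1 gene in CPM on a linear axis from 0, with 1 point per library and a bar at the mean of the 2 libraries in untransfected (none), pUC19, miR-138 mimic and miR-137 mimic cells in serum. Nfix to Id2 are lowest in the miR-138 mimic libraries and Ddx58, Sstr2 and Epha4 highest there, while Ddit3, Trib3 and Atf3 are highest in pUC19 libraries and lowest in untransfected ones.

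Genes of DNA replication fell as a whole list with either reference. All 30 listed genes were tested and all 30 fell against untransfected cells (30.6% of all genes did), with a median log2 fold change of -1.06. All 30 fell against pUC19 as well, with a median of -0.82, and 29 fell against the miR-137 mimic. pUC19 cells were themselves lower than untransfected cells in 12 of the 30 and higher in 1, with a median of -0.19. No fit that left out a library or changed the scaling gave fewer than 29 of 30 lower.

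Uhrf1, which recruits DNA methyltransferase to replicating DNA, had 365 and 362 CPM in untransfected cells, 134 and 121 CPM with the mimic and 323 and 334 CPM with pUC19, and fell by 1.51 on the log2 scale against untransfected cells (SE 0.07, adjusted p = 1.57e-12). Lig1, the ligase that joins Okazaki fragments, had 262 and 255 CPM untransfected and 97.9 and 85.5 CPM with the mimic. Pcna, the sliding clamp of DNA polymerases, had 219 and 203 CPM untransfected and 84.0 and 87.6 CPM with the mimic. In each of these genes the mimic libraries lay below every untransfected and pUC19 library. Mcm7, a subunit of the replicative helicase, had 274 and 282 CPM untransfected, 128 and 121 CPM with the mimic and 238.7 and 235.8 CPM with pUC19, a log2 fold change of -1.16 and -0.93 against the 2 references.

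Promoters of these genes were searched for E2F motifs, because E2F factors are known for switching on replication genes at the start of S phase and the members moved together. The letters searched were TTTCGCGC, TTTGGCGC, TTTCCCGC and TTTGCCGC on both strands, in windows from 250 bases before to 50 bases after each start in RefSeq (GRCm38.p6). At least 1 match was held by 11 of the 25 replication genes with a window (44%), against 4.9% of 9464 tested genes and 2.6% of all 27025 genes with a window. Among genes called lower against both references the share was 8.84% of 2161, and among those called higher against both it was 2.88% of 2154. The windows below, each cut to the match (in capitals) and its flanks on the gene's strand, show 3 of the genes with the lowest adjusted p in the list, while Pcna held no match.
Uhrf1 (chr17:56304104-56304159, + strand): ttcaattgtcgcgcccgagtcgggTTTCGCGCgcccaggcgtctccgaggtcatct
Lig1 (chr7:13278828-13278875, + strand): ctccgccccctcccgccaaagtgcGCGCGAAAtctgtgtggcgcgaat
Mcm7 (chr5:138171836-138171891, - strand): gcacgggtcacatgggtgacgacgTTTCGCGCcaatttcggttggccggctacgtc
A match describes letters in a window and not a bound site, and binding was not measured in these libraries.

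Mitosis genes fell too. All 30 tested genes fell against untransfected cells, with a median log2 fold change of -0.80, and 29 fell against pUC19, with a median of -0.66. pUC19 cells were lower than untransfected cells in 21 of the 30 and higher in 0 (15.5% and 10.7% of all genes). The exception was Bub1, a spindle checkpoint kinase, at -0.55 against untransfected cells and -0.19 against pUC19, where it was not called. Mki67, the proliferation antigen Ki-67, had 1087 and 1034 CPM untransfected, 388 and 395 CPM with the mimic and 938.8 and 829.9 CPM with pUC19. Kif11, the kinesin that separates spindle poles, had 284 and 256 CPM untransfected and 92.5 and 83.6 CPM with the mimic, and the log2 fold change was -1.62 against untransfected cells and -1.20 against pUC19. Aurkb, a kinase of chromosome segregation, had 123 and 124 CPM untransfected and 57.4 and 55.5 CPM with the mimic. The mimic libraries of all 3 genes lay below both reference groups.

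The CCAAT box, bound by NF-Y and common in mitotic gene promoters, was held by 21 of 25 mitosis genes with a window (84%), against 43.9% of tested genes. Among genes called lower against both references the share was 45%, and among those called higher it was 44.8%, both near that of tested genes. Among the G1 regulators 20 of 23 listed genes were tested, and 10 fell while 3 rose against untransfected cells, beside 30.6% and 29.5% of all genes. The falls included positive and negative regulators of the cell cycle. Ccnd1, a D-type cyclin, went from 251 and 245 CPM untransfected to 155 and 153 CPM, and Cdkn1b, the inhibitor p27, from 238 and 225 CPM to 152 and 151 CPM. Cdkn2c, an inhibitor of Cdk4 and Cdk6, went from 102 and 102 CPM to 56.4 and 53.1 CPM. Of the 10 falls 9 were also called lower against pUC19.

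Of 10 tested SOX and nuclear factor I genes 7 fell and 1 rose against untransfected cells (30.6% and 29.5% of all genes), with a median of -0.59, and the 7 fell against pUC19. The miR-137 mimic lowered 6 of the 10 against untransfected cells and raised 2 (27.5% and 23.7% of all genes), with a median of -0.57. Between the mimics 5 of the 10 were higher and 4 lower with miR-138 (32.7% and 30.7% of all genes). Nfib, a relative of Nfix, had 768 and 730.5 CPM untransfected, 307 and 306 CPM with the miR-138 mimic and 637 and 608 CPM with pUC19. The miR-137 mimic lowered it about as far, to 318 and 334 CPM, and the 2 mimics were not called apart (log2 difference -0.09, adjusted p = 0.137). Sox12 fell from 47.6 and 51.3 CPM to 18.0 and 17 CPM, with 59.1 and 55.8 CPM in miR-137 mimic cells. Among TGF-beta, BMP and Id genes 11 of 21 fell and 4 rose against untransfected cells, beside the same 30.6% and 29.5% of all genes. Id1, Id2 and Id3, which block basic helix-loop-helix factors and are induced by BMP, all fell against both references. Id2 went from 72.9 and 62.7 CPM untransfected to 25.9 and 22.9 CPM, with 64.2 and 63.3 CPM in pUC19 cells. Id3 was higher in pUC19 cells (94.2 and 106 CPM) than in untransfected cells (62.9 and 56.8 CPM), so that its fall with the mimic, to 25.9 and 31.7 CPM, was -1.05 against untransfected cells and -1.79 against pUC19. Smad5, which carries BMP signals to the nucleus, fell from 174 and 171 CPM to 90.2 and 94.6 CPM.

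Of 17 tested Notch genes 9 fell and 1 rose against untransfected cells (30.6% and 29.5% of all genes), with 8 of the falls called against pUC19. Lfng, which modifies Notch receptors with sugar, went from 15.1 and 15 CPM untransfected to 3.46 and 2.26 CPM, and Rbpj, the DNA-binding partner of Notch, from 39.4 and 36.0 CPM to 15.3 and 15.3 CPM. Hes1, a Notch target, fell by 0.73 on the log2 scale with either reference. Of 25 tested matrix and adhesion genes 12 fell and 4 rose, read against the same shares. Lamc1, a laminin chain of the basement membrane, fell from 1092 and 1109 CPM untransfected to 492 and 508 CPM, and Col4a2, a basement membrane collagen, from 42.4 and 41.3 CPM to 13.0 and 13.4 CPM. Fn1, fibronectin, differed also between the references, with 1622 and 1638 CPM untransfected, 1075 and 1135 CPM with the mimic and 1185 and 1233 CPM with pUC19. Its log2 fold change was -0.56 against untransfected cells and -0.13 (adjusted p = 0.043) against pUC19.

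The 12 largest falls against untransfected cells, at a mean of at least 5 CPM, were called in the same direction against pUC19 in 11 genes. The exception was Amd-ps4, a pseudogene copy treated below. Sertad4 had 45.0 and 46.4 CPM untransfected, 7.60 and 8.63 CPM with the mimic and 26.6 and 25.5 CPM with pUC19. Nes, the intermediate filament nestin of neural progenitors, had 18.7 and 23.6 CPM untransfected, 4.10 and 3.89 CPM with the mimic and 14.3 and 13.3 CPM with pUC19. In both genes the pUC19 libraries lay between the other groups, and the same held for Thbs4, a matrix thrombospondin (105 and 106 CPM untransfected, 24.6 and 23.3 CPM with the mimic, 63.9 and 66.0 CPM with pUC19). Lgr5, a receptor for R-spondins that strengthens Wnt signalling, went from 47.2 and 48.1 CPM to 10.7 and 9.82 CPM, with 28.5 and 28.4 CPM in pUC19 cells. Mcam, a cell adhesion molecule, had 35 and 38.9 CPM untransfected, 8.11 and 8.75 CPM with the mimic and 50.4 and 54.4 CPM with pUC19, so that its fall was larger against pUC19 (-2.63) than against untransfected cells (-2.13). Ethe1, a mitochondrial enzyme of sulfide breakdown, had almost equal references, with 25.6 and 23.1 CPM untransfected and 24.4 and 23.8 CPM with pUC19, and 6.14 and 5.60 CPM with the mimic. Clmp, an adhesion molecule, fell as well (-2.06 against untransfected cells and -1.76 against pUC19). Cenpx, a centromere protein, and Ier5l ranked high when genes were ordered by the smaller of their 2 falls, with -1.91 and -1.80 against untransfected cells and -1.98 and -1.88 against pUC19.

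Genes that rose against both references included receptors, an RNA sensor and metabolic enzymes. Sstr2, a somatostatin receptor, led when rises were ordered by the smaller of the 2 fold changes, with 2.69 and 3.31 CPM untransfected, 16.2 and 14.9 CPM with the mimic and 3.55 and 3.46 CPM with pUC19. The untransfected and pUC19 libraries lay close together, and the log2 fold change was 2.37 ± 0.14 (SE, adjusted p = 3.31e-11) against untransfected cells and 2.14 against pUC19. Sstr2 was also higher with the miR-137 mimic, at 8.38 and 7.28 CPM (log2 fold change 1.38 against untransfected cells). Epha4, an ephrin receptor that guides axons, had 18.0 and 14.6 CPM untransfected, 52.5 and 53 CPM with the mimic and 14.5 and 13.9 CPM with pUC19. Ddx58, which encodes the sensor RIG-I of viral and other foreign RNA, had 15.3 and 15 CPM untransfected, 46.6 and 43.3 CPM with the miR-138 mimic, 14.7 and 14.4 CPM with pUC19 and 11.4 and 14.8 CPM with the miR-137 mimic. The miR-138 mimic libraries were thus the only serum group in which Epha4 and Ddx58 stood above untransfected cells.

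Kctd21 rose from 2.74 and 1.83 CPM untransfected to 7.56 and 7.89 CPM, and Pold4, a small subunit of DNA polymerase delta, from 2.48 and 2.44 CPM to 8.47 and 8.19 CPM. Pold4 is not among the listed replication genes. Mlycd, malonyl-CoA decarboxylase, rose from 10.8 and 9.77 CPM to 30.5 and 29.2 CPM, and pUC19 cells had 10.1 and 10.3 CPM. Ankrd45 rose from 3.69 and 3.97 CPM to 11.5 and 10.9 CPM, and the miR-137 mimic libraries, with 14.3 and 11.9 CPM, were not called apart from them (log2 difference -0.23, adjusted p = 0.0851). Ndrg4, a gene of neurons and heart, had 4.64 and 4.07 CPM untransfected, 22.6 and 23.2 CPM with the mimic and 8.19 and 7.38 CPM with pUC19.

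Some large rises were partly shared with pUC19. Hist1h1c, a linker histone, had 5.06 and 4.93 CPM untransfected, 53.4 and 48.8 CPM with the mimic and 18.9 and 19.2 CPM with pUC19. Among named genes with a mean of at least 5 CPM it made the largest rise, 3.35 ± 0.12 (SE, adjusted p = 4.84e-14) on the log2 scale, and 1.43 (adjusted p = 6.76e-10) remained against pUC19. Hist1h2bc, a core histone, had 3.43 and 3.87 CPM untransfected, 20.2 and 23.1 CPM with the mimic and 9.67 and 7.46 CPM with pUC19. Histone genes have close copies, so reads may be split among them. Slc40a1, the iron exporter ferroportin, had 10.4 and 9.26 CPM untransfected, 37.8 and 40.9 CPM with the mimic and 24.6 and 20.9 CPM with pUC19, and its log2 fold change went from 2.00 to 0.78 when pUC19 was the reference. In all 3 genes the pUC19 libraries lay between untransfected and mimic libraries without overlap.

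Lysosome and autophagy genes were counted next. Of 26 genes, all tested, 18 rose and 4 fell against untransfected cells (29.5% and 30.6% of all genes), with a median of 0.31. Against pUC19 12 rose and 6 fell (28.7% and 27.3% of all genes), with a median of 0.13, and the 12 were all among the 18. pUC19 cells had 10 of the genes higher than untransfected cells and 0 lower (10.7% and 15.5% of all genes), with a median of 0.14. Ctsb, the protease cathepsin B, had 181 and 184 CPM untransfected, 357 and 359 CPM with the mimic and 287 and 303 CPM with pUC19. Atp6v0d1, a subunit of the proton pump that acidifies lysosomes, had 102 and 104 CPM untransfected, 194 and 194 CPM with the mimic and 144 and 161 CPM with pUC19. Gabarapl1, a protein of autophagosome membranes, had 20.6 and 22.1 CPM untransfected and 43.7 and 43.8 CPM with the mimic, with 31 and 27.7 CPM in pUC19 cells. All 3 genes were ordered alike, with untransfected cells lowest and mimic cells highest. Npc1, the lysosomal cholesterol transporter, fell instead, from 57.2 and 55.4 CPM untransfected to 29.6 and 29.5 CPM, with 60.8 and 63.4 CPM in pUC19 cells. Sqstm1, the autophagy receptor p62, had 486 and 489 CPM untransfected, 715 and 714 CPM with the mimic and 1406 and 1393 CPM with pUC19, and so was called higher against the former (0.55) and lower against the latter (-0.97).

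The palindrome TCACGTGA, within the CLEAR element to which TFEB and related factors bind in lysosomal genes, was held by 5 of 18 lysosome and autophagy genes with a window (27.8%), against 2.21% of tested genes. Among genes called higher against both references the share was 2.88%, and among those called lower it was 2.13%. The palindrome is shown for Atp6v0d1, the only gene with a match among the 4 members with the lowest adjusted p. Ctsb, Npc1 and Gabarapl1 had no match or no window.
Atp6v0d1 (chr8:105566037-105566092, - strand): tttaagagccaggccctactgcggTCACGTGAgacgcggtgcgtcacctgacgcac

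ATF4 is a transcription factor made when amino acids run short or the endoplasmic reticulum is stressed, and counts of its target genes differed between the references. Of 26 listed genes 25 were tested. Against untransfected cells 7 rose and 7 fell, near the shares of all genes (29.5% and 30.6%), with a median log2 fold change of 0.09. Against pUC19 1 rose and 21 fell (28.7% and 27.3% of all genes), with a median of -0.46. pUC19 cells had 19 of the 25 higher than untransfected cells and 1 lower, beside 10.7% and 15.5% of all genes. Of the 7 rises 0 were called higher against pUC19, and of the 7 falls all 7 were called lower. Without any one library of the groups compared, 20 or 21 members remained lower against pUC19.

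Ddit3, the stress factor CHOP, had 4.90 and 5.75 CPM untransfected, 34.1 and 34.2 CPM with the mimic, 60.6 and 62.2 CPM with pUC19 and 22.3 and 22.6 CPM with the miR-137 mimic. The 4 groups did not overlap, and untransfected cells were lowest. The log2 fold change was 2.68 ± 0.13 (SE, adjusted p = 2.93e-12) against untransfected cells and -0.84 (adjusted p = 6.33e-07) against pUC19. Trib3, a pseudokinase induced by ATF4 and CHOP, had 11 and 12.1 CPM untransfected, 27.3 and 29.2 CPM with the mimic and 63.5 and 65.3 CPM with pUC19, or 1.29 and -1.19. Pck2, mitochondrial phosphoenolpyruvate carboxykinase, fell against both, from 37.8 and 41.8 CPM untransfected and 36.0 and 39.9 CPM with pUC19 to 25.2 and 24.1 CPM. Sars, the seryl-tRNA synthetase, had 243 and 240 CPM untransfected, 321 and 313 CPM with the mimic and 330 and 331 CPM with pUC19, so that its rise of 0.40 was not seen against pUC19 (-0.06, adjusted p = 0.306). The motif TGATGNAAT, bound by ATF4 with C/EBP proteins, was found in 1 of 21 of these genes' windows (4.76%), against 0.549% of tested genes. Among genes called lower against both references the share was 0.694%, and among those called higher it was 0.371%.

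Immediate-early genes are switched on within minutes of a stimulus. Of 17 tested genes (20 listed) 10 rose and 2 fell against untransfected cells (29.5% and 30.6% of all genes), with a median of 0.41. Against pUC19 2 rose (0 to 2 over the settings run) and 11 fell (28.7% and 27.3% of all genes), with a median of -0.57. pUC19 cells had 12 higher than untransfected cells and 1 lower (10.7% and 15.5% of all genes), with a median of 1.21. Atf3, a stress-induced repressor, had 4.43 and 4.68 CPM untransfected, 19.0 and 18.8 CPM with the mimic and 56.9 and 57.4 CPM with pUC19. Egr1, a zinc finger factor, had 34.6 and 41.8 CPM untransfected, 107 and 96.2 CPM with the mimic and 144 and 145 CPM with pUC19. Fos, a component of AP-1, had 10.1 and 9.31 CPM untransfected, 16.6 and 15.5 CPM with the mimic and 25.9 and 28.7 CPM with pUC19. In these 3 genes the mimic libraries lay between the references, with no overlap. Myc, a growth-promoting factor, fell against both, from 232 and 238 CPM untransfected and 254 and 271 CPM with pUC19 to 172 and 174 CPM.

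**Figure D4:**
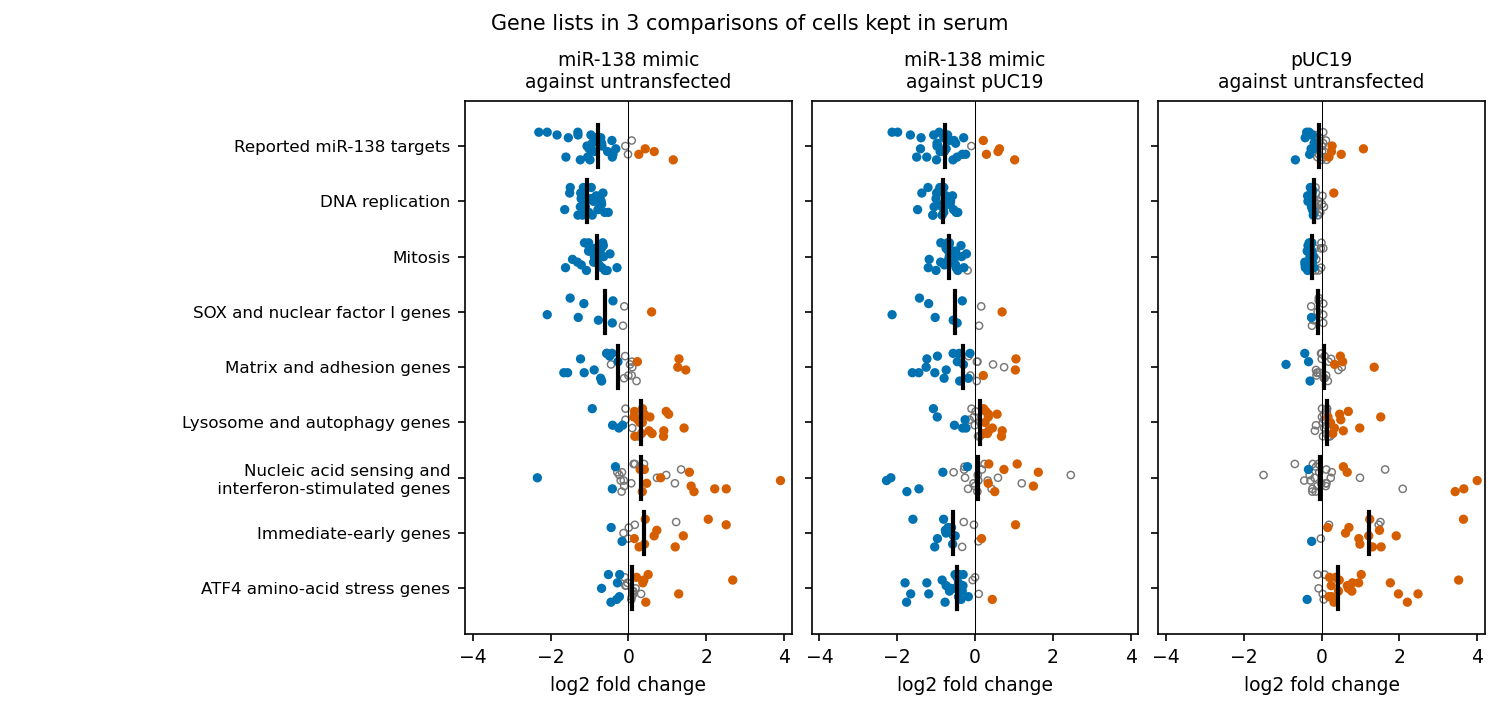
Points are the tested members of 9 gene lists, placed by log2 fold change in miR-138 mimic against untransfected cells (left), miR-138 mimic against pUC19 (middle) and pUC19 against untransfected cells (right), filled orange (higher) or blue (lower) where called and open where not, with a black bar at the median. The 1 member beyond 4 is drawn at the edge, and the replication and mitosis lists lie left of 0 in the left and middle panels while the ATF4 and immediate-early lists shift left in the middle panel and right in the right panel.

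Genes of nucleic acid sensing and the interferon response included several too low to be tested. Of 40 listed genes 30 were tested, 11 rose and 3 fell against untransfected cells (29.5% and 30.6% of all genes), and 7 rose and 6 fell against pUC19 (28.7% and 27.3%). Besides Ddx58, Eif2ak2, the double-stranded RNA kinase PKR, rose against both, from 35.8 and 34.9 CPM untransfected and 29.4 and 26.2 CPM with pUC19 to 47.1 and 46.7 CPM. Parp14 rose from 0.474 and 0.712 CPM to 1.77 and 1.89 CPM. Cxcl10, an interferon-induced chemokine, had 1 and 1 counts in the untransfected libraries, 23 and 23 with the miR-138 mimic and 80 and 53 with pUC19. From these counts the mimic group stood 17 times above untransfected cells (exact 95% counting interval 4.44 to 144) and at 0.205 times the pUC19 level (0.143 to 0.289), so that its direction depended on the reference. Such intervals cover counting error only. Among NF-kB response genes 5 of 11 rose against untransfected cells and 0 fell (29.5% and 30.6% of all genes), and 3 rose and 4 fell against pUC19, near the 28.7% and 27.3% of all genes. Sod2, a mitochondrial superoxide dismutase, rose against both, from 125 and 119 CPM untransfected and 118 and 121 CPM with pUC19 to 157 and 161 CPM.

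Genes of the miRNA pathway itself were read too. Of 29 tested genes 15 fell and 4 rose against untransfected cells (30.6% and 29.5% of all genes), with 13 and 4 called the same way against pUC19 (21.9% and 21.4%). Ago1, an Argonaute protein, went from 88.8 and 88.2 CPM untransfected to 39.1 and 40.1 CPM, and the miR-137 mimic libraries, with 41.8 and 45.5 CPM, were not called apart from these (log2 difference -0.14, adjusted p = 0.0905). Tut4, which adds uridines to RNA ends, fell from 239 and 225.5 CPM to 132 and 133.5 CPM, and Cnot1, the scaffold of the CCR4-NOT deadenylase, from 794 and 790.2 CPM to 512 and 522 CPM. Lin28b, which blocks let-7 maturation, rose from 60.1 and 55.4 CPM to 115 and 112 CPM, with 56.3 and 54.7 CPM in pUC19 cells.

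Of 35 tested neuronal genes 6 rose and 14 fell against untransfected cells (29.5% and 30.6% of all genes), with 4 and 12 called the same way against pUC19 (21.4% and 21.9%). Of 17 tested genes of catecholamine synthesis and transport 6 rose and 5 fell, near the shares of all genes. Syt1, the calcium sensor of synaptic vesicles, rose from 62.4 and 55.2 CPM untransfected to 130.5 and 133 CPM, while miR-137 mimic cells had 20.2 and 21.3 CPM. Map2, a dendritic microtubule protein, fell from 43.5 and 39.8 CPM to 21.2 and 22.1 CPM, and Mapt, the axonal protein tau, from 19.7 and 20.7 CPM to 7.80 and 8.75 CPM. Tubb3, neuronal beta-tubulin, fell from 20.1 and 22.6 CPM to 12.1 and 10.8 CPM, and pUC19 cells had 31.4 and 32.9 CPM and miR-137 mimic cells 75.0 and 67.2 CPM. Hand2, which helps to specify sympathetic neurons, fell, with log2 fold changes of -0.76 against untransfected cells and -0.61 against pUC19. Dbh, the enzyme that makes noradrenaline from dopamine, had 25.2 and 28.6 CPM untransfected, 9.41 and 9.93 CPM with the miR-138 mimic, 13.8 and 15.4 CPM with pUC19 and 3.66 and 5.43 CPM with the miR-137 mimic. Untransfected cells were highest in Dbh, all transfected groups lay below them without overlap, and the change with the miR-138 mimic was -1.48 against untransfected cells and -0.59 (adjusted p = 0.0141) against pUC19. Gata3, a factor of the sympathetic lineage, rose from 1.85 and 2.09 CPM to 4.96 and 6.08 CPM.

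The remaining lists held rises and falls against untransfected cells and are read beside the 29.5% of all genes that rose and the 30.6% that fell. Palmitoylation cycle enzymes gave 7 higher and 12 lower of 22, with Ppt2, a lysosomal thioesterase, rising from 13.0 and 15.4 CPM to 30.7 and 33.7 CPM. Polycomb and histone demethylase genes gave 5 higher and 10 lower of 20, with Kdm5b, a histone H3 demethylase, rising from 57.2 and 54.6 CPM to 110 and 111 CPM. Cholesterol and fatty acid synthesis genes gave 14 higher and 10 lower of 31, with Lss, lanosterol synthase, rising (log2 fold change 0.63) and Elovl6, a fatty acid elongase, falling (-1.25). Hypoxia and glycolysis genes gave 4 higher and 9 lower of 26, the falls near the share of all genes, and Hif1a, the oxygen-regulated factor, fell from 730.5 and 674 CPM to 374 and 346 CPM. Targets of p53 gave 6 higher and 8 lower of 16, and Trp53 itself, which encodes p53, fell from 132.6 and 136.6 CPM to 96.5 and 91.5 CPM. Trp53inp1 rose against untransfected cells (1.58) and was not called against pUC19 (-0.19, adjusted p = 0.317).

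Several of the largest changes against untransfected cells were shared by every transfected group. Counting genes called in the same direction and changed at least 2-fold in pUC19, miR-138 mimic and miR-137 mimic cells alike gave 80 higher and 30 lower. In miR-137 mimic cells such changes were made by 2.53% and 5.08% of all genes. Of these 110 genes 52 (47.3%) are pseudogenes by RefSeq type or name, against 2.44% of all genes tested. For changes of any size, the share among genes called the same way against untransfected and pUC19 cells was 0.296% of the rises and 0.397% of the falls. Among those called against untransfected cells and not the same way against pUC19 it was 6.42% of the rises and 4.36% of the falls. Reads that mapped to several places, which the counts leave out, made up 18.5 and 18.5% in the untransfected libraries, 17.3 and 17.1% in the miR-138 mimic libraries and 17.7 and 17.3% in the pUC19 libraries. The part of this difference in the pseudogene calls was not tested.

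Eif3s6-ps2, a pseudogene of a translation initiation factor, had 2.00 and 1.37 CPM untransfected, 9.06 and 8.38 CPM with the miR-138 mimic and 7.98 and 9.11 CPM with pUC19, or 2.37 against untransfected cells and 0.04 (adjusted p = 0.835) against pUC19. Eno1b, which is nearly identical to the glycolytic enzyme gene Eno1, rose by 2.19 against untransfected cells and was not called against pUC19 (-0.17). Rpl35, a ribosomal protein gene with many copies, had 22.7 and 21.7 CPM untransfected, 123 and 118 CPM with the miR-138 mimic, 95 and 97.7 CPM with pUC19 and 119 and 114 CPM with the miR-137 mimic, and was called against pUC19 too (0.32, adjusted p = 0.011). Rpl10a-ps1 and Rpl28-ps1 rested on 1 library. They had 7.36 and 27.8 CPM and 3.82 and 18.4 CPM in the mimic libraries, and without the second mimic library their log2 fold changes went from 1.97 to 0.72 (adjusted p = 0.118) and from 1.83 to 0.28 (adjusted p = 0.631). Without untransfected replicate 2 Rpl28-ps1 was not called either (1.62, adjusted p = 0.0554). Reads of these genes may belong to their parent genes or other copies, and their values are uncertain.

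The falls of this kind included Amd-ps4, a pseudogene, with 20.7 and 15.5 CPM untransfected, 3.50 and 2.89 CPM with the miR-138 mimic and 5.03 and 3.85 CPM with pUC19. Pgam1, a glycolytic enzyme (-1.98), Snrpg, a protein of the spliceosome (-1.92), and Cbx3, heterochromatin protein 1 gamma (-1.41), have processed copies too, and none was called against pUC19 (-0.24, -0.20 and -0.25). mt-Nd6, the complex I subunit encoded on the other strand of mitochondrial DNA, had 337 and 388 CPM untransfected, 101 and 109 CPM with the miR-138 mimic, 120.4 and 90.4 CPM with pUC19 and 94.8 and 127 CPM with the miR-137 mimic. Slco1c1, a thyroid hormone transporter, had 11.9 and 10.8 CPM untransfected, 4.33 and 5.11 CPM with the miR-138 mimic and 4.48 and 4.55 CPM with pUC19, and the miR-137 mimic libraries were lower still, at 0.998 and 1.93 CPM (log2 difference 1.70 between miR-138 and miR-137 mimics, adjusted p = 1.6e-06). Untransfected cells were highest in both genes. Car6, a secreted carbonic anhydrase singled out after its values were seen, had 0 counts in both untransfected libraries, 24 and 27 with the miR-138 mimic, 149 and 104 with pUC19 and 78 and 48 with the miR-137 mimic. With a floor of 3 counts over the untransfected group it was at least 12.5-fold higher with the miR-138 mimic and at least 105-fold higher with pUC19.

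With the miR-137 mimic in serum as another reference, 8019 genes (63.4%) were called, with 32.7% higher and 30.7% lower, and 2028 of the 2703 rises and 2127 of the 2773 falls that both other references gave were called in the same direction (16.0% and 16.8% of all genes tested, and 4155 genes or 32.8% together). Of 26 tested genes reported as miR-137 targets 8 rose and 15 fell with the miR-138 mimic against untransfected cells (29.5% and 30.6% of all genes). The miR-137 mimic itself gave 1 higher and 22 lower (23.7% and 27.5% of all genes). Of the 13 called lower with the miR-138 mimic against both untransfected and pUC19 cells 3 were also lower than with the miR-137 mimic. Tcf4, a basic helix-loop-helix factor on that list, had 548 and 519 CPM untransfected and 441.4 and 420.4 CPM with pUC19. With the miR-138 mimic it had 240.3 and 249.9 CPM and with the miR-137 mimic 216.5 and 231.5 CPM, below both references. pUC19 cells were themselves called lower than untransfected cells in Tcf4 (log2 fold change -0.31). Paxip1, a DNA damage response protein, fell from 23.2 and 26.3 CPM to 7.96 and 8.19 CPM with the miR-138 mimic and stood at 24.7 and 26 CPM with the miR-137 mimic. Adra2b, an adrenergic receptor and 1 of the largest falls, had 61.6 and 72 CPM untransfected, 13.2 and 13.5 CPM with the miR-138 mimic and 13.8 and 16.0 CPM with the miR-137 mimic, and the mimics were not called apart (log2 difference -0.16, adjusted p = 0.269).

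Cells taken 2 days after serum withdrawal gave a reading with no library in common, the miR-138 mimic against pUC19 at that time. Of the 2703 genes that rose against both references in serum 1943 (71.9%) were higher at 2 days, beside 30.9% of all genes. Another 1028 rose against untransfected cells without being called higher against pUC19, and 114 of them were called lower there. Of the 1028 genes 426 (41.4%) were higher at 2 days. Of the 2773 that fell against both 2212 (79.8%) were lower at 2 days, beside 31.1% of all genes. Another 1101 fell against untransfected cells without being called lower against pUC19, and 43 of them were called higher there. Of the 1101 genes 450 (40.9%) were lower at 2 days. All these sets were chosen by their calls against pUC19 in serum, and the 2-day reading used pUC19 as well. The serum and 2-day cells differ in medium and in time since transfection too. Serum was removed 48 h after transfection and the 2-day cells were taken 2 days after that. By list, 28 of 32 reported miR-138 targets, all 30 replication genes and 25 of 30 mitosis genes were lower at 2 days, and 18 of 26 lysosome and autophagy genes were higher. ATF4 genes were split, with 8 higher and 11 lower of 25. At 2 days Nfix stood at -1.92, Dek at -1.65 and Ccnd3 at -1.55 on the log2 scale, and Sstr2 at 2.67, Epha4 at 1.36 and Ddx58 at 1.41. Ddit3 and Trib3, lower than pUC19 in serum, were higher than pUC19 at 2 days (1.60 and 0.49).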

How the data were processed

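PolyA RNA was sequenced as stranded single-end libraries, per the labels' protocols for transfected cells; the read length of the untransfected libraries is not stated separately. The authors deposited read counts for each gene; the submitters' processing notes name STAR and mm9, but the sources used here give no version or annotation. Column 4, the dUTP strand, was used, after a check that the other strand held 3.24 to 3.67% of assigned reads. Assigned reads per library ran from 12740836 to 25582125. Reads outside genes stayed out of totals: unmapped reads made up 4.53 to 6.67%.

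All 14 libraries of the third RNA-seq experiment (7 groups of 2) were fitted together in edgeR 4.0.16 (R 4.3.3, limma 3.58.1, data.table, version 1.17.8), with filterByExpr (minimum count 10, minimum total 15), TMM scaling and the two-sided quasi-likelihood test. P-values were adjusted by Benjamini-Hochberg over all genes of a comparison, at 0.05. SE is the fold change over the root of the test statistic. CPM are scaled by TMM and not by gene length, so levels are not compared between genes. Of 37310 identifiers 32620 (87.4%) matched a symbol. Promoters and miRNAs come from RefSeq. Drawing was by matplotlib 3.10.9, Python 3.11.15 and pandas 2.3.3, and intervals came from scipy 1.17.1.

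Members and 29 gene lists were chosen with earlier results of these data known. Some genes and 1 of the lists are not reported here. Named genes were the hairpin genes, 12 fixed genes, up to 4 per list by adjusted p, and the 12 largest rises and falls (mean at least 5 CPM, groups not overlapping, no predicted name). Under the same filters 8 rises and 8 falls were ranked by the smaller change against both references. A further 6 rises and 6 falls were called against untransfected cells, not the same way against pUC19, and between pUC19 and untransfected cells. Other list members (among them Pdk1, Tert, Blcap, Rela, Limk1, Igf1r, Vcan, Kdm6b, Bub1 and Sqstm1) and Car6 were named after their values were seen.

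Simulated counts for 12303 genes, with changes set in the miR-138 mimic against untransfected comparison, gave back 81.6% of 1.5-fold and 91.8% of 2-fold changes. Each of these folds was set in 49 genes. False calls made up 7.65%, above the 0.05 rule. Few genes were changed, while 60.1% were called in the data, so these rates need not hold there. Replicate numbers did not pair libraries: deviations of same-numbered libraries correlated at -0.023 to 0.075. Alternatives were RLE scaling, DESeq2 1.42.0, no low-count filter, a replicate block, unstranded counts, only the compared libraries in the fit, leave-one-out fits and a 2-fold minimum; for gene lists these were added after seeing the data.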

Additional observations from a re-analysis of the deposited data

How the results depend on the processing

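The count against untransfected cells was 7605 and ran from 6469 to 6678 when 1 library was left out; it was 7785 with the replicate block and 6640 with DESeq2. The count called in the same direction against untransfected and pUC19 cells was 5476, with 5663 under the replicate block and 4591 to 5069 without 1 library. With only genes changed at least 2-fold the counts were 1148 and 550. pUC19 against untransfected cells gave 3321 calls, 1730 to 2764 without 1 library and 3738 with the block. The other counts over all genes stayed within 1.5 times their value under every setting run. No count crossed that limit under the block. Of 1347 refits of 135 named genes 1329 kept direction and call, 14 lost the call, 2 gained one and 2 turned sign. The turns were in genes that were not called: Cd68 at 0.11 without miR-138 mimic replicate 1 (from -0.79 to 0.11 over the libraries left out) and Actc1 at -0.54 without untransfected replicate 2 (from -0.54 to 1.60). With 1 library of a group left out, the other is assumed to vary like the remaining groups. Groups of 2 limit precision, and genes under about 1 CPM, such as Th, were not resolved: Th stood at -2.24 (adjusted p = 0.0546), and was called without untransfected replicate 1 (-2.78, adjusted p = 0.0349) or miR-138 mimic replicate 1 (-4.81, adjusted p = 0.0239), while its adjusted p lay between 0.0239 and 0.453 over all settings.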
